A study of Homo sapiens with 9 samples.

Results

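The E2F and RB families were followed through 10 genes, taken by their symbols in GENCODE release 29 from the 58233 gene identifiers in the count files. They comprise 3 activators (E2F1, E2F2 and E2F3), 2 canonical repressors (E2F4 and E2F5), 2 atypical repressors (E2F7 and E2F8) and 3 pocket proteins (RB1, RBL1 and RBL2). All 10 passed the filter on low counts. RNA had been sequenced from UPCI-SCC-040, an oral squamous cell carcinoma line from the tongue, in 9 libraries. The 3 control libraries received no TGF-β1 (their titles carry 0 h), 3 libraries come from cells given TGF-β1 at 5 ng/ml for 48 h and 3 from cells given it for 72 h. The treatment medium lacked FBS and penicillin/streptomycin, while the growth medium contained both, and the labels do not say whether the controls were kept without serum. The factor, the loss of serum and the hours in culture therefore cannot be told apart as the source of a difference. In every group replicate 1 was passage 12, replicate 2 passage 13 and replicate 3 passage 8 of this 1 line, so that p-values measure the spread between these cultures.

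E2F proteins are transcription factors that bind DNA, most of them as dimers with a DP protein (TFDP1 or TFDP2). The activators switch on genes for DNA synthesis when a cell passes from G1 into S phase, the canonical repressors hold such genes down in resting and early G1 cells, and the atypical repressors, which bind without a DP partner, shut them down again later in the cycle. Pocket proteins bind E2Fs and block them until cyclin-dependent kinases phosphorylate the pocket protein. RB1 pairs mainly with the activators, whereas RBL1 (p107) and RBL2 (p130) pair with E2F4 and E2F5. In epithelial cells TGF-β arrests growth in G1 by inducing kinase inhibitors, which keeps pocket proteins bound to E2Fs. Several genes of the families, E2F1, E2F2 and RBL1 among them, are themselves targets of E2F.

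Across the series, the libraries held 12544690 to 20438727 counts assigned to genes, of which 7341 to 16199 fell on the 10 genes. Levels are given in CPM (TMM-scaled counts relative to the size of the library) and are set against each other between genes only as CPM per kb of merged exon. The 8 squamous epithelium markers all exceeded 10 CPM in every library, the 4 leukocyte markers together never exceeded 0.215 CPM and the 3 muscle markers 0.124 CPM. The 3 endothelium markers summed to at most 2.66 CPM. The 4 fibroblast markers summed to 0.241 to 1.00 CPM in the controls, 0.858 to 17.8 CPM at 48 h and 1.99 to 22.2 CPM at 72 h, where 3 of the 4 stayed under 1 CPM in every library, and their part in the results was not tested. Replicate 3 at 72 h stood apart: MALAT1 took 1.54% of its counts against 0.247% to 0.507% in the other 8 libraries, and the 86 cytosolic ribosomal protein genes took 1.04% against 1.60% to 2.92%. Its counts differed from those of the other two 72 h libraries by a chi-square per degree of freedom of 135 and 159, against 44.3 between those other libraries. The 72 h values of the 10 genes and of the list genes described, except CCND1 and CCND3, were therefore recomputed without it.

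Transcripts of the activators, of E2F8 and of RBL1 were lower after treatment, while E2F4, E2F5, E2F7 and RB1 did not pass the test at either time. In bulk RNA, fewer cells expressing a gene and less RNA of it per cell cannot be told apart. By the quasi-likelihood test of edgeR, with p-values adjusted by the Benjamini-Hochberg method over the 15440 genes tested, 4 of the 10 genes were lower at 48 h (E2F2, E2F3, E2F8 and RBL1) and 1 was higher (RBL2). Among all genes tested, 16.0% were called lower and 14.9% higher at 48 h. At 72 h the same test called 5 of the 10 lower (E2F1, E2F2, E2F3, E2F8 and RBL1) and 0 higher, against 19.4% and 20.4% of all genes tested. The median log2 fold change of the 10 genes was -0.33 at 48 h and -0.37 at 72 h, beside 0.00 and 0.03 over all genes tested. Without replicate 3 at 72 h, 5 of the 10 genes were called lower at each time, E2F1 being added at 48 h. Both comparisons use the same 3 control libraries and are not independent of each other.

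The promoters of the genes called lower are shown beside those of a repressor of each kind that was not called. RefSeq's promoter table for GRCh38.p14 held entries for 8 of the 10 genes, none being listed there for E2F5 and E2F8, each with 250 bases before the start site and 50 from it on. The E2F motif was searched on both strands as TTTGGCGC, TTTCCCGC, TTTGCCGC or TTTCGCGC, and the cell cycle homology region (CHR), an element bound by the MuvB complex, as TTTGAA. No match overlapped another in these windows. An E2F motif was held by 3.31% and a CHR by 15.2% of all 35116 promoters listed. An E2F motif was present in E2F1, E2F2, the first of 2 entries for E2F3 and RBL1, which were all called lower at 72 h, and in neither E2F4, E2F7, RBL2 nor the RB1 entry, which starts 172724 bases inside that gene. The RBL2 entries also start inside their gene, at 494 and 1642 bases. The bases before the GENCODE starts of RB1 and RBL2 were therefore not searched. The 100 bases before the start site read as follows, 5′ to 3′ on the strand of the gene, with E2F and CHR matches in capitals.
E2F1, chr20:33686386-33686485, minus strand: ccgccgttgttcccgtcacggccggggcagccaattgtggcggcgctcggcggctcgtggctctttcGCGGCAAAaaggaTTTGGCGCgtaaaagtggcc
E2F2, chr1:23531234-23531333, minus strand: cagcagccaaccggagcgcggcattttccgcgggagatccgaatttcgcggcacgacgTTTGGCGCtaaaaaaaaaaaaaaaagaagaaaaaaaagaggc
E2F3, chr6:20401779-20401878, plus strand: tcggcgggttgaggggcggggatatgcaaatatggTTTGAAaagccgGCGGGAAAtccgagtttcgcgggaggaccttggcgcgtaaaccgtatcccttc
RBL1, chr20:37095998-37096097, minus strand: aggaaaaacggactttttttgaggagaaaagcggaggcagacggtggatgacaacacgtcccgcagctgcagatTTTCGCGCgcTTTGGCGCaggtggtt
E2F4, chr16:67192055-67192154, plus strand: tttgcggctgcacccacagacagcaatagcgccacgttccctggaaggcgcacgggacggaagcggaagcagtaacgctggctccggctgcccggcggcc
E2F7, chr12:77065570-77065669, minus strand: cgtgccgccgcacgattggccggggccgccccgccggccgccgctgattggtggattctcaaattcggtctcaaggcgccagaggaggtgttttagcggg

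In these stretches the first base of the E2F matches lay at -33 and -20 in E2F1, at -42 in E2F2, at -53 in E2F3 and at -26 and -16 in RBL1, counted from the RefSeq start site. The match at -33 in E2F1 and that at -53 in E2F3 are on the opposite strand. E2F3 also carried a CHR match at -65, and RBL2 one at 25 bases past the start site of its first entry, outside the bases printed. The last 19 bases shown for E2F1 and the last 11 for E2F7 lie in an exon of GENCODE release 29. A match is a description of the letters and shows no binding, and a window without one shows nothing about the factor.

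E2F1, the founding activator and per kb of exon the most abundant of the 10 transcripts in the controls (GRCh38 chromosome 20, 33675683 to 33686404, minus strand), fell at 72 h. It measured 131, 146 and 141 CPM in control replicates 1, 2 and 3. At 48 h the same replicates gave 33.9, 55.1 and 30.7 CPM, and at 72 h they gave 65.3, 29.2 and 7.41 CPM. All 6 treated libraries lay below all 3 controls, and the 72 h libraries spread far more widely than the others, replicate 1 being the highest and replicate 3 the lowest. The log2 fold change was -2.03 ± 0.63 (SE, n = 3 against 3, edgeR adjusted p = 0.0320) at 72 h, a level 24.4% of the control. At 48 h it was -1.80 ± 0.62 with an edgeR adjusted p of 0.0574, which missed the threshold of 0.05. A call at 48 h was made under 6 of the 19 alternatives, and the adjusted p ranged from 0.000378 to 0.244 across all 19. Among the 6 were the edgeR fits without 72 h replicate 1 (adjusted p = 0.0225), without 72 h replicate 3 (0.00255) and with the controls and 48 h libraries alone (0.000378). In the main fit the 72 h libraries share the estimate of spread. The 72 h call was lost without control replicate 1, 2 or 3 (adjusted p = 0.0683, 0.0764 and 0.0707) or 72 h replicate 2 (0.0829), over a range of 0.00649 to 0.169.

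E2F2, an activator found mainly in cycling cells (chromosome 1, 23506430 to 23531220, minus strand), had the largest fold changes of the activators. Control replicates 1, 2 and 3 held 30.8, 35.9 and 35.2 CPM. Treated libraries held 4.34, 4.53 and 3.75 CPM at 48 h and 6.43, 2.22 and 1.54 CPM at 72 h. No treated library came near a control, and the 48 h libraries were close to each other while those at 72 h were not. Its level was 8.04-fold lower at 48 h (log2 fold change -3.01 ± 0.43, edgeR adjusted p = 0.00193) and 9.94-fold lower at 72 h (-3.31 ± 0.44, adjusted p = 0.000906). The treated values rest on few counts per library, 46 to 87 at 48 h and 25 to 114 at 72 h.

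E2F3, an activator that gives rise to a long and a short protein not separated by gene counts (chromosome 6, 20401906 to 20493715, plus strand), fell less. Replicates 1, 2 and 3 gave 47.9, 45.0 and 50.2 CPM in the controls, 33.7, 34.8 and 36.5 CPM at 48 h and 39.1, 35.3 and 30.6 CPM at 72 h. The treated libraries were lower than every control in a narrow band. The log2 fold change was -0.45 ± 0.12 at both times (edgeR adjusted p = 0.0216 at 48 h and 0.0167 at 72 h), a level 73.4% of the control. These calls were lost at 48 h without control replicate 1, 2 or 3 or without 48 h replicate 1 or 2 (adjusted p between 0.0509 and 0.0812), and at 72 h without control replicate 1 (0.0552) or 3 (0.0660).

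**Figure D1:**
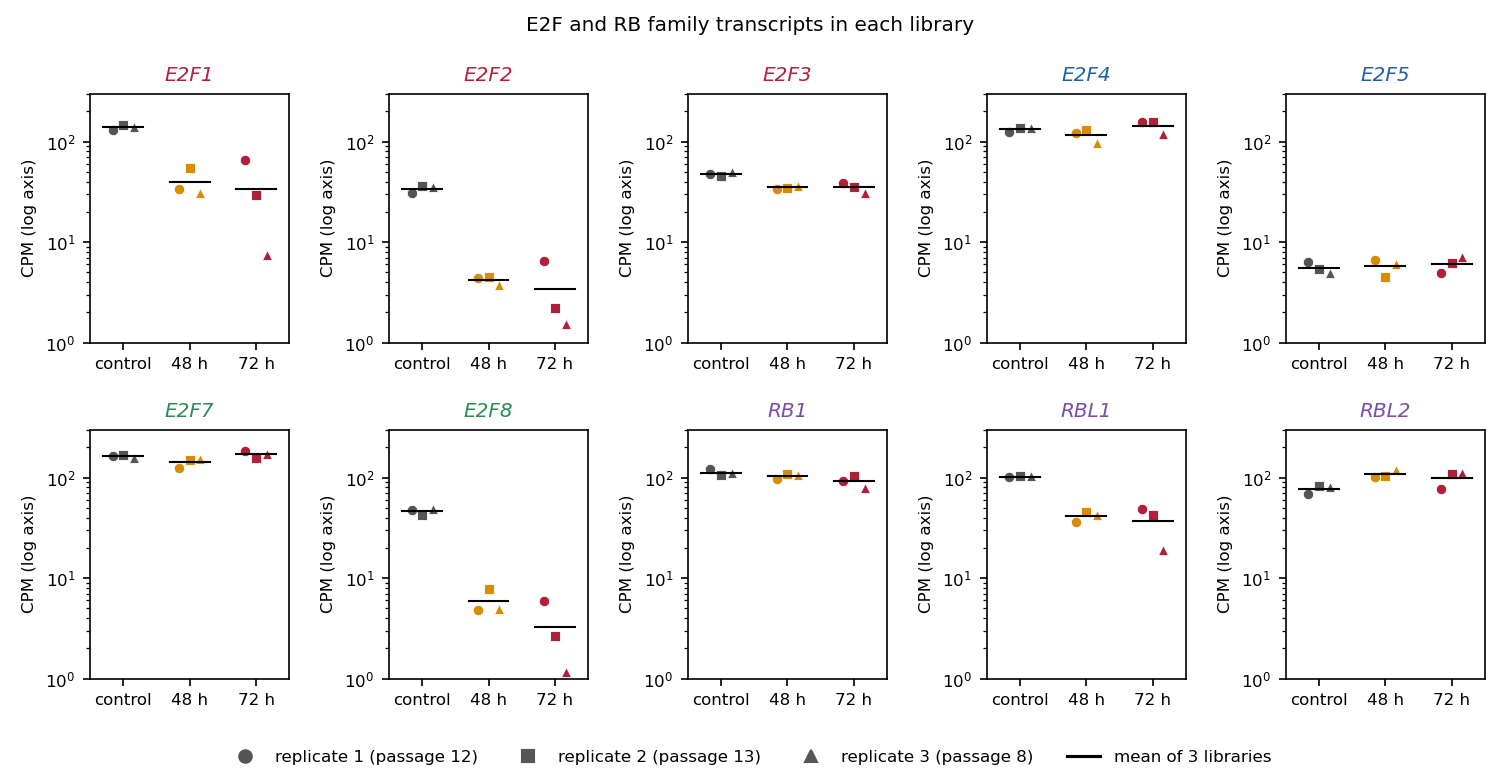
CPM of each gene in each library on a log axis from 1 to 300, by group, with the marker shape giving the replicate and the bar the mean of 3 libraries; title colours mark activators (red), canonical repressors (blue), atypical repressors (green) and pocket proteins (purple). E2F2, E2F8 and RBL1 drop clear of the controls at both times, while E2F4, E2F5 and RB1 stay near them, and 72 h replicate 3 is the lowest library for E2F1, E2F2, E2F8 and RBL1.

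Neither canonical repressor passed the test. E2F4, the main E2F of resting cells (chromosome 16, 67192169 to 67198918, plus strand), measured 125, 136 and 136 CPM in control replicates 1, 2 and 3. It measured 121, 129 and 96.3 CPM at 48 h and 156, 155 and 118 CPM at 72 h. Replicate 3 was the lowest library at both treated times, and the groups overlapped. The log2 fold change was -0.20 (95% interval -0.54 to 0.14, edgeR adjusted p = 0.345) at 48 h and 0.11 (-0.23 to 0.45, adjusted p = 0.585) at 72 h.

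E2F5, a canonical repressor that binds RBL2 (chromosome 8, 85177225 to 85217158, plus strand), was the scarcest of the 10 in the controls. It gave 6.39, 5.37 and 4.94 CPM in control replicates 1, 2 and 3, 6.68, 4.53 and 6.11 CPM at 48 h and 4.90, 6.21 and 7.04 CPM at 72 h. All 3 groups overlapped, and no replicate was high throughout. At 69 to 134 counts per library, its log2 fold change was 0.05 (95% interval -0.46 to 0.56, edgeR adjusted p = 0.881) at 48 h and 0.12 (-0.39 to 0.63, adjusted p = 0.702) at 72 h. It shares 969 bases of exon with C8orf59 on the opposite strand, and since the strand setting of the counting is not given in the sources used here, reads from the shared bases cannot be told apart.

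The atypical repressors parted. E2F8 (chromosome 11, 19224063 to 19241620, minus strand) measured 47.1, 42.9 and 49.2 CPM in control replicates 1, 2 and 3. It measured 4.84, 7.78 and 4.97 CPM at 48 h and 5.98, 2.68 and 1.17 CPM at 72 h. Every treated library was far below the controls, and 72 h replicate 3 was the lowest. E2F8 was 7.90-fold lower at 48 h (log2 fold change -2.98 ± 0.46, edgeR adjusted p = 0.00251) and 14.1-fold lower at 72 h (-3.81 ± 0.48, adjusted p = 0.000799), the latter resting on 19 to 106 counts a library.

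E2F7, its closest relative (chromosome 12, 77021247 to 77065580, minus strand), did not pass the test. Its CPM were 163, 168 and 158 in control replicates 1, 2 and 3, 125, 150.1 and 154 at 48 h and 184, 156 and 172 at 72 h. The 48 h libraries lay just below both other groups without overlap, and the 72 h libraries spanned the range of the controls. The log2 fold change was -0.19 (95% interval -0.46 to 0.09, edgeR adjusted p = 0.281) at 48 h and 0.07 (-0.21 to 0.35, adjusted p = 0.688) at 72 h. At 72 h the interval of E2F8 ran from -4.89 to -2.73 and so did not meet that of E2F7; the difference between the genes itself was not tested.

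Among the pocket proteins, 1 fell, 1 rose at 48 h and 1 passed the test at neither time. RBL1 (p107; chromosome 20, 36996349 to 37095995, minus strand) gave 101, 103 and 103 CPM in control replicates 1, 2 and 3. It gave 36.3, 45.3 and 42.7 CPM at 48 h and 48.8, 42.8 and 19.2 CPM at 72 h. The controls were almost equal, all treated libraries were well below them, and 72 h replicate 3 was the lowest. The log2 fold change was -1.30 ± 0.28 (edgeR adjusted p = 0.00919) at 48 h and -1.47 ± 0.28 (adjusted p = 0.00419) at 72 h, levels 40.5% and 36.1% of the control. RBL1 shares 211 bases of exon with AL136172.1 on the opposite strand.

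RBL2 (p130; chromosome 16, 53433977 to 53491649, plus strand), the pocket protein of resting cells, moved the other way. It measured 69.1, 82.5 and 80.4 CPM in control replicates 1, 2 and 3, 102, 103 and 118 CPM at 48 h and 77.8, 108 and 111 CPM at 72 h. All 48 h libraries were above all controls, whereas 72 h replicate 1 fell among the controls. RBL2 rose at 48 h (log2 fold change 0.48 ± 0.15, edgeR adjusted p = 0.0384), while the 72 h value was 0.35 ± 0.15 (adjusted p = 0.0894). The 48 h call was lost when any 1 of its 6 libraries was left out (adjusted p = 0.142, 0.0796 and 0.0885 without control replicates 1, 2 and 3, and 0.0748, 0.0651 and 0.110 without 48 h replicates 1, 2 and 3), and a 72 h call was made without 72 h replicate 1 (0.0165). RBL2 shares 610 bases of exon with AKTIP and 721 with AC007342.6, both on the opposite strand, so that reads from those bases cannot be told apart either.

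RB1, the retinoblastoma tumour suppressor (chromosome 13, 48303726 to 48599436, plus strand), measured 122, 105 and 109.9 CPM in control replicates 1, 2 and 3. At 48 h it measured 96.7, 109 and 106 CPM, and at 72 h 91.9, 104 and 79.3 CPM. The 48 h libraries overlapped the controls and the 72 h libraries lay just below them. The log2 fold change was -0.11 (95% interval -0.40 to 0.17, edgeR adjusted p = 0.537) at 48 h and -0.29 (-0.58 to -0.01, adjusted p = 0.0944) at 72 h.

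**Figure D2:**
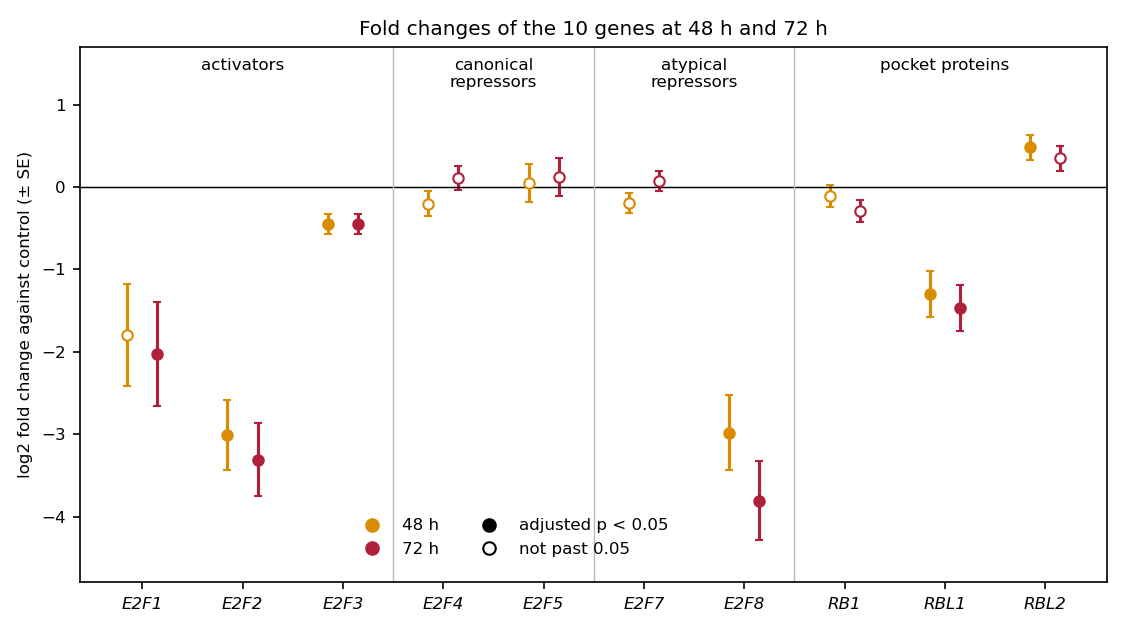
Log2 fold change of each gene against control at 48 h (orange) and 72 h (red) from the edgeR fit, with bars of 1 SE; filled points have an adjusted p under 0.05. E2F1, E2F2, E2F8 and RBL1 lie between -1.30 and -3.81, E2F3 at -0.45, and RBL2 is the only gene with a filled point above 0.

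By position of the libraries, 6 of the 10 genes had all 3 of their 48 h libraries below all 3 controls (E2F1, E2F2, E2F3, E2F7, E2F8 and RBL1), against 28.1% of all genes tested, and 1 had them all above (RBL2), against 25.6%. At 72 h 6 genes lay wholly below (E2F1, E2F2, E2F3, E2F8, RB1 and RBL1), against 27.7%, and 0 wholly above, against 27.3%. Between the treated times, 1 of the 10 genes (E2F7) had all its 72 h libraries above all its 48 h libraries, against 7.07% of all genes tested, and 0 had them below, against 5.17%.

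Between 48 h and 72 h edgeR called 0 of the 10 genes higher and 0 lower. It also called 0 of the 15440 genes tested in either direction (0% higher and 0% lower), although 1382 genes (8.95%) had an unadjusted p under 0.05. DESeq2 called 24 genes higher and 15 lower, none of them among the 10. E2F1, E2F2 and RBL1 changed sign without 72 h replicate 3 (log2 changes of 0.25, 0.04 and 0.15 in place of -0.23, -0.31 and -0.17), none past the threshold. The log2 changes with all libraries ran from -0.83 for E2F8 (95% interval -1.88 to 0.21) to 0.31 for E2F4 (-0.03 to 0.65). None of the 10 had an unadjusted p under 0.05, the smallest being 0.0691 for E2F7 (log2 change 0.25) and 0.0694 for E2F4. A difference between the times was not detectable for these genes with 3 libraries a group.

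The 4 genes with the deepest falls were also those whose 72 h libraries differed most from each other. The highest 72 h library exceeded the lowest 8.81-fold for E2F1, 5.09-fold for E2F8, 4.16-fold for E2F2 and 2.54-fold for RBL1. Without replicate 3 the log2 fold changes at 72 h were -1.55 for E2F1, -3.41 for E2F8, -2.97 for E2F2 and -1.15 for RBL1, all past the threshold (edgeR adjusted p = 0.0106, 0.000203, 0.000489 and 0.000333). Without replicate 1, the highest 72 h library, they were -2.92, -4.58, -4.16 and -1.72 (adjusted p = 0.00649, 0.000229, 0.000110 and 0.00307). The ratio of highest to lowest was 1.51 for the median gene tested and 1.19 to 1.44 for the other 6 genes. In the controls it was 1.03 to 1.29 for all 10 genes, beside 1.22 for the median gene. The 30 E2F target genes of the G1/S transition described below were ordered in the same way at 72 h, their summed level being 771, 448 and 225 CPM per kb in replicates 1, 2 and 3. Passage, MALAT1 and the ribosomal protein share differ between these same libraries, and their part in this spread was not tested.

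Expressed per kb of exon, the activators lost most of their summed level and the other roles less. The activator sum in replicates 1, 2 and 3 was 67.2, 73.5 and 72.6 CPM per kb in the controls, 20.9, 29.6 and 20 at 48 h and 34.9, 18.9 and 9.17 at 72 h. The mean went from 71.1 ± 3.43 (SD, n = 3) to 23.5 ± 5.28 and 21.0 ± 13.0 CPM per kb, with no overlap between treated libraries and controls. The canonical repressors, nearly all E2F4, summed to 37.9 ± 1.64, 33.2 ± 4.62 and 40.9 ± 6 CPM per kb in the same order of groups, and their libraries overlapped. The atypical repressors summed to 37.0 ± 0.139, 24.1 ± 2.68 and 27.9 ± 2.70 CPM per kb, and the pocket proteins to 45.1 ± 0.213, 37.8 ± 2.40 and 33.9 ± 3.70 CPM per kb. For both, every treated library was below every control. No test was run on these sums, since they are scores over chosen genes.

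The ratio of activator to repressor transcripts, each summed per kb, was 0.948 ± 0.0269 (SD, n = 3) in the controls, 0.407 ± 0.0579 at 48 h and 0.295 ± 0.159 at 72 h. In single libraries it was 0.918, 0.968 and 0.959, then 0.374, 0.474 and 0.374, and at 72 h 0.464, 0.272 and 0.149 for replicates 1, 2 and 3. All treated ratios were below all control ratios, and at 72 h replicate 3 was the lowest. E2F1 transcripts exceeded E2F4 transcripts 1.49-fold to 1.53-fold in the controls, whereas the ratio of E2F1 to E2F4 was 0.490 ± 0.109 at 48 h and 0.319 ± 0.258 at 72 h.

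**Figure D3:**
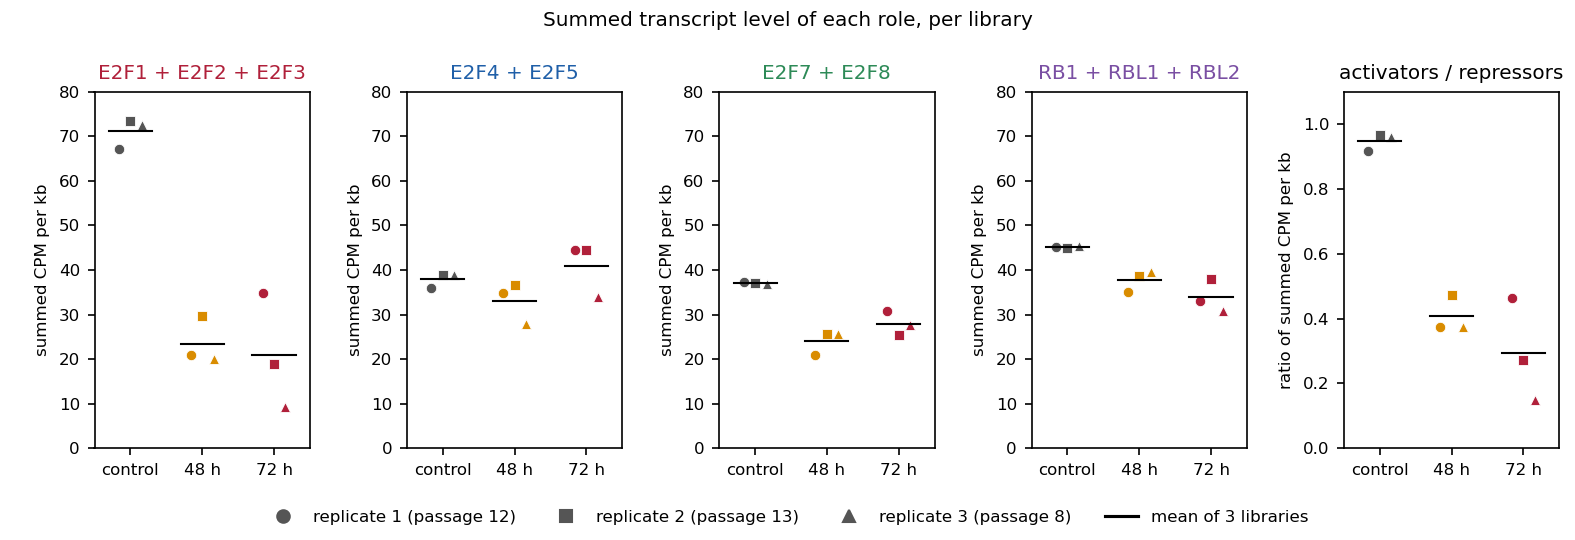
Summed CPM per kb of the activators, canonical repressors, atypical repressors and pocket proteins in each library, and the ratio of activators to all 4 repressors, by group; marker shapes give replicates and bars the means of 3 libraries. The activators average 71.1 in the controls and 23.5 and 21.0 after treatment, while E2F4 and E2F5 together average between 33.2 and 40.9 throughout.

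Within the activators, E2F3 held a larger share in the treated libraries. E2F1 made up 78.2 ± 0.831% of the activator level in the controls, 66.9 ± 6.78% at 48 h and 56.3 ± 21.8% at 72 h (SD, n = 3), while E2F3 went from 13.0 ± 1.03% to 29.8 ± 6.39% and 40.8 ± 21.8%. In 72 h replicate 3 E2F3 was the larger of these, at 64.6% against 32.3% for E2F1. E2F2 held 8.75 ± 0.299%, 3.35 ± 0.505% and 2.87 ± 0.641%.

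Among the pocket proteins RBL1 and RBL2 changed places. RBL1 made up 38.0 ± 0.687% of the pocket protein level in the controls and 18.4 ± 1.17% and 18.1 ± 7.17% after 48 h and 72 h, whereas RBL2 went from 23.4 ± 2.24% to 39.0 ± 2.14% and 40.1 ± 8.73% (SD, n = 3). RB1 kept a similar share, at 38.5 ± 2.91%, 42.6 ± 1.22% and 41.8 ± 1.58%. The ratio of RBL1 to RBL2 was 1.79, 1.54 and 1.57 in control replicates 1, 2 and 3, 0.436, 0.539 and 0.447 at 48 h and 0.771, 0.489 and 0.213 at 72 h. RBL1 thus exceeded RBL2 in every control and was below it in every treated library.

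**Figure D4:**
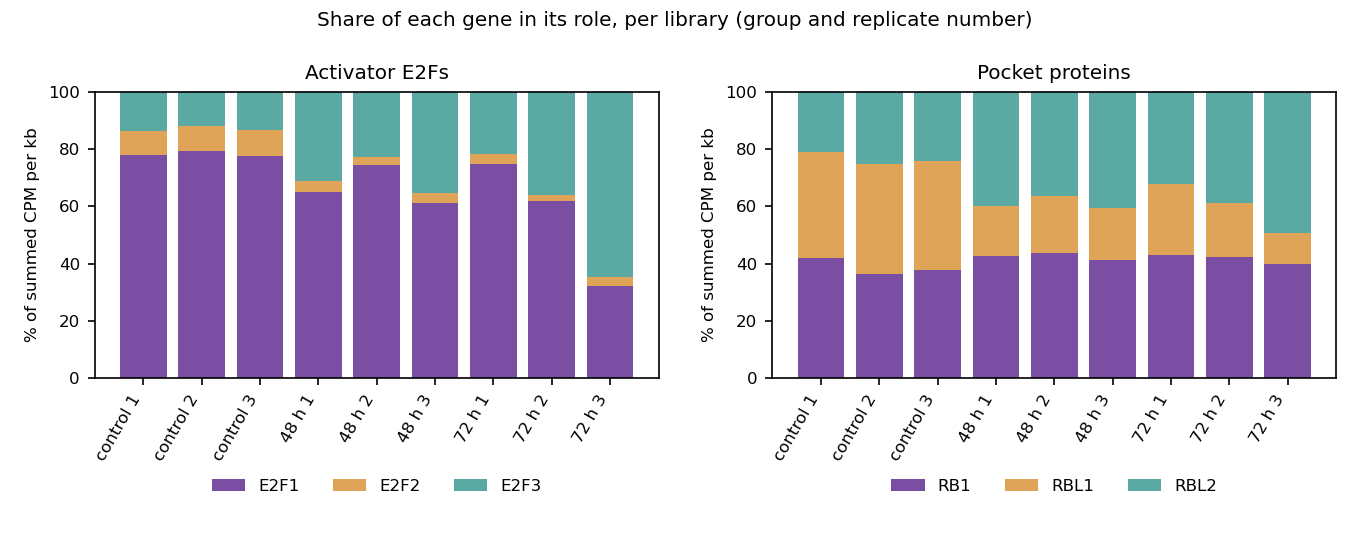
Share of each gene in the summed CPM per kb of its role, in percent, for the activators and the pocket proteins, 1 bar per library named by group and replicate. E2F3 and RBL2 widen in the treated libraries, and 72 h replicate 3 is the only library in which E2F3 (64.6%) exceeds E2F1 (32.3%).

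The order of the 10 levels changed at its top and bottom. In the controls E2F1 led with 55.6 CPM per kb, followed by E2F4 (37.0), E2F7 (25.8), RB1 (17.4), RBL1 (17.2), E2F8 (11.2), RBL2 (10.6), E2F3 (9.24), E2F2 (6.23) and E2F5 (0.939). The libraries of neighbours overlapped between RB1 and RBL1, between E2F8 and RBL2 and between RBL2 and E2F3, and nowhere else in that order. At 48 h E2F4 led with 32.2 CPM per kb, ahead of E2F7 (22.7) and of RB1 (16.1), E2F1 (15.9) and RBL2 (14.7), of which RB1 overlapped E2F1 and E2F1 overlapped RBL2. E2F8 (1.42), E2F5 (0.974) and E2F2 (0.771) closed the list, the last pair overlapping. At 72 h E2F4 (39.9) again stood clear at the top, followed by E2F7 (27.1). At the bottom E2F5 (1.02), E2F8 (0.791) and E2F2 (0.623) overlapped. The libraries of E2F1 overlapped those of E2F7 at both treated times. The highest for E2F1 was 22.0 at 48 h and 26.1 at 72 h, against 19.9 and 24.7 for the lowest of E2F7.

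TFDP1 and TFDP2, the dimer partners, fell at 72 h, and CBX3 of the E2F6 complex fell at both times. However, the 72 h call of TFDP1 and the 48 h call of CBX3 were each lost under 14 of the 19 alternatives. The list holds TFDP1, TFDP2, E2F6 (a repressor without a pocket protein site) and 7 partners of E2F6 in a Polycomb complex. Of its 10 genes 2 fell at 48 h and 4 at 72 h, beside 16.0% and 19.4% of all genes tested, and 0 rose at 48 h and 1 at 72 h, beside 14.9% and 20.4%. The median log2 fold change was -0.15 and -0.28. TFDP1 went from 237 ± 15.6 CPM (SD, n = 3) to 172 ± 14.1 at 48 h (log2 fold change -0.46 ± 0.20, edgeR adjusted p = 0.103) and fell to 161 ± 49.2 at 72 h (-0.56 ± 0.20, adjusted p = 0.0487). TFDP2 fell at 72 h (-0.60 ± 0.15, adjusted p = 0.0112) after -0.15 ± 0.15 at 48 h (adjusted p = 0.470). E2F6 was at -0.09 ± 0.20 and 0.23 ± 0.20 (adjusted p = 0.757 and 0.375). CBX3, a heterochromatin protein, fell at both times (-0.42 ± 0.14 and -0.69 ± 0.14, edgeR adjusted p = 0.0472 and 0.00466), PCGF6 at 72 h (-0.60 ± 0.18, adjusted p = 0.0241) and L3MBTL2 at 48 h (-0.56 ± 0.13, adjusted p = 0.00919). With the replicate number as a block CBX3 missed the threshold at 48 h (edgeR adjusted p = 0.0620), leaving 1 gene of the list called lower. The count of 2 at 48 h was also 1 without any 1 control, 48 h replicate 1 or 2 or 72 h replicate 2, with DESeq2, with either other scaling and with no filter on low counts, and 4 without 72 h replicate 3. The 72 h call of TFDP1 was lost when any 1 library other than 72 h replicate 1 was left out (adjusted p between 0.0610 and 0.134), and the count of 4 at 72 h was 2, 1 and 2 without control replicates 1, 2 and 3 and 2 without 72 h replicate 3. In that last fit TFDP1 (-0.36, adjusted p = 0.0971) and PCGF6 (-0.47, adjusted p = 0.0603) missed the threshold, while TFDP2 (-0.46) and CBX3 (-0.62) passed it (0.0211 and 0.00862).

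MYBL2, FOXM1 and the MuvB subunits LIN9 and LIN54 were lower at both times. MuvB is a complex that represses cell cycle genes with RBL1 or RBL2 and activates them with MYBL2 and later FOXM1. Of 8 genes of this list 5 fell at each time, though not the same 5, beside 16.0% and 19.4% of all genes tested. At either time 0 rose, and the median log2 fold change was -0.74 and -0.81. MYBL2 fell at 48 h (log2 fold change -1.89 ± 0.60, edgeR adjusted p = 0.0424) and 72 h (-2.60 ± 0.61, adjusted p = 0.0110), and so did FOXM1 (-1.17 ± 0.33, adjusted p = 0.0270, and -1.57 ± 0.34, adjusted p = 0.00667). The MuvB subunits LIN9 and LIN54, the latter being the one that binds the CHR, were each at -0.90 at 48 h (edgeR adjusted p = 0.00659 and 0.00440) and at -1.29 and -1.10 at 72 h (0.00101 and 0.00130). The 48 h call of MYBL2 was lost under 11 of the 19 alternatives and that of FOXM1 under 8. In the fits leaving libraries out, their edgeR adjusted p at 48 h reached 0.144 and 0.155. With the replicate number as a block MYBL2 had an edgeR adjusted p of 0.0542 at 48 h. The 48 h calls of LIN9 and LIN54 were each lost under 2 of the alternatives. The count of 5 at 48 h was 2 or 3 without any 1 control or 48 h library, and at 72 h it was 4 to 6 without any 1 library. Without 72 h replicate 3 the 72 h values of MYBL2, FOXM1, LIN9 and LIN54 were -2.14, -1.26, -1.24 and -0.96, all called (edgeR adjusted p between 0.00148 and 0.00477), and without 72 h replicate 1 that of MYBL2 was -3.60.

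Upstream of the pocket proteins, 3 kinase inhibitors rose at each time (CDKN1A, CDKN1C and CDKN2B), while others fell. Of 16 cyclins, kinases and inhibitors, these 3 compare with 14.9% of all genes tested at 48 h and 20.4% at 72 h, and 5 fell at 48 h and 7 at 72 h, beside 16.0% and 19.4%. The median log2 fold change was -0.59 and -0.67. The inhibitors that fell, named here with CDKN1C after their values were seen, were CDKN1B, which encodes p27, CDKN2D and CDKN2C. CDKN1B was at -0.92 and -0.75 (edgeR adjusted p = 0.00103 and 0.00147) and CDKN2D at -0.82 and -1.04 (adjusted p = 0.0113 and 0.00297). The 48 h call of CDKN2D was lost without control replicate 3 (edgeR adjusted p = 0.0509). It was also lost without replicate number 1, 2 or 3 of every group (0.0673, 0.0843 and 0.0722). CDKN2C fell at 72 h (-2.25, edgeR adjusted p = 0.00833). This value was -3.13 without 72 h replicate 1 and -1.90 without 72 h replicate 3 (adjusted p = 0.0121). The 72 h call of CDKN2C was lost with no filter on low counts (0.0576) and without replicate number 2 of every group (0.101). At 48 h CDKN2C was at -1.31 (edgeR adjusted p = 0.0701, and 0.00740 and 0.0248 without 72 h replicates 1 and 3). CDKN1C was at 1.25 and 1.67 (edgeR adjusted p = 0.0103 and 0.00222). Its 48 h call was lost without replicate number 1 (0.125) or 2 (0.0942) of every group. Without 72 h replicate 3 its 72 h value was 1.30 (adjusted p = 0.00144). CDKN2B, which encodes the CDK4 and CDK6 inhibitor p15, measured 15.7, 11.1 and 13.8 CPM in control replicates 1, 2 and 3. It measured 86.6, 36.3 and 114 CPM at 48 h and 66.5, 45.5 and 231 CPM at 72 h, above the controls throughout. Its log2 fold change was 2.54 ± 0.66 (edgeR adjusted p = 0.0210) and 3.08 ± 0.67 (adjusted p = 0.00799), and the 48 h call was lost without control replicate 1, 2 or 3 or 48 h replicate 1 or 3 (adjusted p between 0.0550 and 0.0775). Without 72 h replicate 3, the highest library, the 72 h value was 2.05 (adjusted p = 0.00784). CDKN1A, which encodes p21, rose 4.21-fold at 48 h and 4.39-fold at 72 h (log2 fold change 2.07 ± 0.18 and 2.14 ± 0.18, edgeR adjusted p = 0.000318 and 0.000184). Cyclin D2 (CCND2) was 3.57-fold lower at 48 h and 4.01-fold lower at 72 h (SE 0.44 on the log2 scale at each time, edgeR adjusted p = 0.0135 and 0.00687). In the controls it held 1.79 CPM per kb, against 682 for cyclin D1 (CCND1) and 9.76 for cyclin D3 (CCND3). CCND1 and CCND3, named here after their values were seen, passed the test at neither time. CCND1 was at 0.25 and 0.21 (edgeR adjusted p = 0.486 and 0.520) and CCND3 at -0.33 and -0.24 (adjusted p = 0.142 and 0.246). CDC25A, the phosphatase that activates CDK2 and is also counted among the G1/S targets, also fell (-1.73 ± 0.40 and -2.05 ± 0.41, edgeR adjusted p = 0.0134 and 0.00521). The 48 h calls of CCND2 and CDC25A were lost without 48 h replicate 1 (adjusted p = 0.0586 and 0.0568), and that of CCND2 also without control replicate 2, where its log2 fold change was -1.24 at 48 h (0.0511) and -1.41 at 72 h (0.0251). Without 72 h replicate 3 the 72 h values of CDKN1A, CCND2 and CDC25A were 2.20, -1.72 and -1.70, all called (edgeR adjusted p between 8.99e-05 and 0.0154), and without 72 h replicate 1 that of CDC25A was -2.69. The count of 5 lower at 48 h was 3 without 48 h replicate 1 and 8 without 72 h replicate 3.

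The G1/S targets, which activator E2Fs switch on for DNA synthesis, were lower together. Of 30 genes 24 fell at 48 h and 28 at 72 h, beside 16.0% and 19.4% of all genes tested, and 0 rose at either time, with a median log2 fold change of -1.46 and -1.81. With the replicate number as a block 18 fell at 48 h and 28 at 72 h. At 48 h all 30 had every treated library below every control, and at 72 h 29 had, beside 28.1% and 27.7% of all genes tested. Cyclin E1 and cyclin E2 (CCNE1 and CCNE2), named here after their values were seen, were the 2 that did not pass at 72 h, with log2 fold changes of -0.41 (edgeR adjusted p = 0.230) and -1.39 (adjusted p = 0.108). CCNE1 passed without 72 h replicate 1 (-0.74, adjusted p = 0.0291) and CCNE2 without 72 h replicate 1 (-2.19, 0.0238) or 3 (-0.89, 0.0351). The replication licensing factor CDT1 fell by a log2 fold change of -2.02 ± 0.46 at 48 h and -2.10 ± 0.46 at 72 h (edgeR adjusted p = 0.0128 and 0.00805). For the origin recognition subunit ORC1 these were -1.86 ± 0.40 and -2.30 ± 0.41 (edgeR adjusted p = 0.0101 and 0.00330). The clamp loader subunit RFC3 was at -1.96 and -2.28 (edgeR adjusted p = 0.0128 and 0.00536) and the initiation factor MCM10 at -1.90 and -2.36 (adjusted p = 0.0471 and 0.0182). The 48 h call of MCM10 was lost under 12 of the 19 alternatives, among them the replicate number as a block (edgeR adjusted p = 0.0654). Those of CDT1, ORC1 and RFC3 were lost under 4, 2 and 3. The summed level of the list was 1552 ± 76.2 CPM per kb in the controls, 593 ± 109 at 48 h and 481 ± 275 at 72 h (SD, n = 3). An E2F motif was found in any promoter entry of 14 of the 25 list genes that had an entry (56%). Among all promoters, counted as single entries and not by gene, the share was 3.31%. The list was chosen as E2F targets, so its share is a description. The count of 24 at 48 h was 12, 9 and 11 without control replicates 1, 2 and 3, 5 and 9 without 48 h replicates 1 and 3, and 29 without 72 h replicate 3, while the 72 h count was 24 to 30 without any 1 library. Without 72 h replicate 3 the 72 h values of CDT1, ORC1, RFC3 and MCM10 were -1.73, -1.96, -1.89 and -1.88, all called (edgeR adjusted p between 0.00169 and 0.00577), and without 72 h replicate 1 they were -2.73, -2.92, -3.02 and -3.27.

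Among the RB corepressors and other RB1 partners HBP1 rose and SUV39H1, SKP2 and TRIM28 fell at both times. Of 12 chromatin proteins and partners that bind RB1, 3 rose at each time, beside 14.9% and 20.4% of all genes tested, and 4 fell at 48 h and 6 at 72 h, beside 16.0% and 19.4%. The median log2 fold change was -0.09 and -0.32. HBP1, a repressor of cell cycle genes that binds RB1, rose 2.10-fold and 2.70-fold (log2 fold change 1.07 ± 0.22 and 1.43 ± 0.22, edgeR adjusted p = 0.00683 and 0.00139). SUV39H1, a histone methyltransferase, fell (log2 fold change -1.20 ± 0.29 and -1.31 ± 0.29, edgeR adjusted p = 0.0126 and 0.00639). SKP2, the ubiquitin ligase subunit that targets p27, fell as well (-0.86 ± 0.26 and -1.11 ± 0.26, edgeR adjusted p = 0.0306 and 0.00867). TRIM28 was at -0.68 ± 0.16 and -0.63 ± 0.16 (edgeR adjusted p = 0.0136 and 0.0139). Without 72 h replicate 3 the 72 h values of HBP1, SUV39H1, SKP2 and TRIM28 were 1.26, -1.07, -0.96 and -0.47, all called (adjusted p between 0.00174 and 0.0230). Of these, the 48 h call of SKP2 was lost without any 1 control and without 48 h replicate 1 or 2 (adjusted p between 0.0708 and 0.110). The 48 h calls of SUV39H1 and TRIM28 were also lost without 48 h replicate 1. Over all fits leaving libraries out, their edgeR adjusted p at 48 h reached 0.0772 and 0.115. The count of 4 at 48 h was 0 without 48 h replicate 1, 2 without 48 h replicate 2, and 2, 1 and 2 without control replicates 1, 2 and 3, while the 3 that rose at 48 h became 1 without 48 h replicate 1 or control replicate 2 or 3. The lists share CCNE1, CCNE2 and CDC25A between the upstream genes and the G1/S targets.

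**Figure D5:**
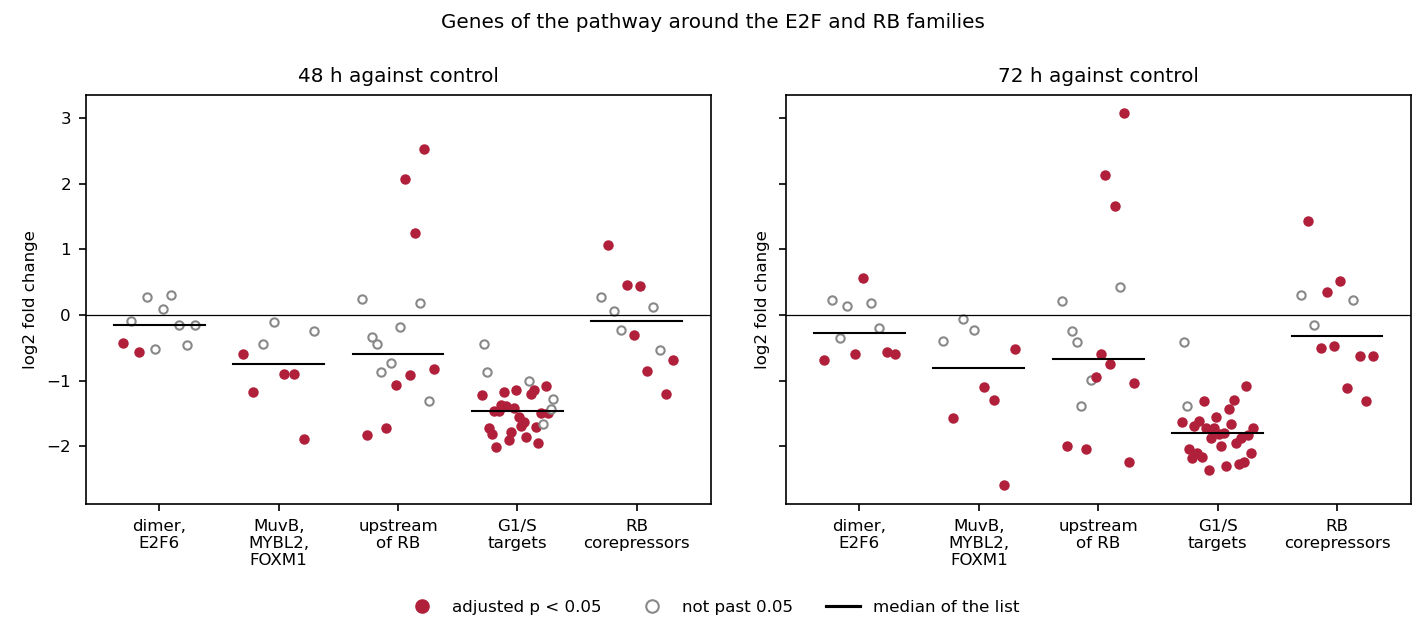
Log2 fold change of each gene of the 5 pathway lists at 48 h (left) and 72 h (right), with filled points where the adjusted p was under 0.05 and a line at the list's median. The G1/S targets lie below 0 at both times (medians -1.46 and -1.81), while CDKN1A, CDKN1C and CDKN2B are the 3 high points among the genes upstream of RB.

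Genes with the most similar profile were sought for the member of each role with the largest changes, by Pearson correlation of log2 CPM over the 9 libraries among 12676 protein-coding genes. The 9 points share the 3 treatment groups, so r is a description of these libraries. For E2F2 these were RCC1 (r = 0.997), EXOSC2 (0.996) and MRTO4 (0.994). For E2F8 they were ELAVL2 (0.996), CCT8 (0.996) and HMGN2 (0.995), and for RBL1 PAICS (0.998), GNPNAT1 (0.996) and TRIP13 (0.995). For E2F4, which did not change past the test, they were NME4 (0.975), ABL1 (0.960) and AP3D1 (0.933).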

How the data were processed

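RNA-seq was measured in 9 libraries of UPCI-SCC-040 cells, 3 a group. The authors deposited raw read counts per Ensembl gene for each library. Per the submitters' processing notes featureCounts 1.5.0-p1, STAR 2.5.2a, FastQC 0.11.5 and bcl2fastq 2.17.1.14 were used, with hg38. Annotation release, strandedness of the counting and handling of multiply mapped reads were not given in the sources used here. Symbols and exon lengths came from GENCODE release 29, in which 338 of 58233 identifiers (0.0145% to 0.0202% of counts) were not found.

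Counts were tested with edgeR 4.0.16 (limma 3.58.1, R 4.3.3): filterByExpr, TMM scaling, robust quasi-likelihood F test over all 9 libraries with group as the sole term, Benjamini-Hochberg adjustment over all genes tested and a threshold of 0.05. The procedure was also run on simulated counts with the same spread of a gene in all groups. That setting does not match the wider spread of these data at 72 h, and no result here rests on it. Alternatives were DESeq2 1.42.0 as test, DESeq2 size factors or upper-quartile factors, no filter or 1 CPM in 3 libraries, the replicate number as a block, fits to the 2 groups compared, and leaving out each library or each replicate number. Library totals were 12544690 to 20438727 counts, and E2F2, E2F5 and E2F8 rest on the fewest counts.

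The 10 genes and the pathway lists were chosen with earlier results of these data known, so their counts are descriptions. Named are all 10 genes, from each list at most 4 genes called at both times, then at 1 time, by largest mean absolute log2 fold change, always E2F6, TFDP1 and TFDP2, and the 3 protein-coding genes most correlated with the leading gene of each role.

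The labels give each replicate number 1 passage in all groups, so the numbers pair the libraries by passage. Deviations from the group means of libraries with the same number correlated at 0.11, 0.08 and 0.12 (48 h against control), 0.04, 0.11 and 0.10 (72 h against control) and -0.03, 0.49 and 0.49 (72 h against 48 h) for replicates 1, 2 and 3. No 2 libraries agreed within sampling noise (chi-square per degree of freedom 8.99 to 159 within groups).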

Additional observations from a re-analysis of the deposited data

How the results depend on the processing

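Each of the 10 genes was recomputed in each comparison under 19 alternatives, and 514 of 570 values kept their direction and their side of the threshold, with 33 losing a call, 7 gaining one and 16 changing sign. E2F2 and E2F8 were called lower at both times under all 19. With no filter on low counts, 3 genes in place of 5 were lower at 72 h, E2F1 (adjusted p = 0.162) and E2F3 (0.0784) being lost. Leaving out single libraries or replicate numbers, the number of the 10 genes called at 48 h ranged from 0 to 1 higher and from 2 to 5 lower, at 72 h from 0 to 1 higher and from 2 to 5 lower, and between the times it was 0. Fewer libraries were left in each of those fits. With the replicate block, 1 was higher and 4 lower at 48 h, 0 and 5 at 72 h and 0 and 0 between the times, the same genes as without it. Beyond CBX3, MYBL2 and MCM10 at 48 h, the block changed no call of the named genes recomputed with it.

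Signs turned only for values that missed the threshold. Leaving out libraries, E2F5 ranged from -0.07 to 0.20 at 48 h and from -0.08 to 0.36 at 72 h, TFDP2 from -0.23 to 0.02 at 48 h and E2F6 from -0.02 to 0.40 at 72 h. From 48 h to 72 h the ranges were -1.23 to 0.25 for E2F1, -1.16 to 0.04 for E2F2, -0.13 to 0.32 for E2F5, -0.51 to 0.17 for RBL1 and -0.24 to 0.02 for RBL2. RBL1 lost its call without replicate 1 (adjusted p = 0.0926) or 2 (0.0940) at 48 h and without replicate 2 (0.0530) at 72 h. The G1/S targets called lower numbered 11 at 48 h and 17 at 72 h with no filter, and 0 and 2 without replicate 2. For the list genes named by rule 691 of 836 values kept their call and direction. Upper-quartile scaling gave 2575 genes higher and 2205 lower at 48 h over all genes tested, against 2301 and 2478 with TMM. The alternatives for the lists were chosen after seeing the data, and the cause of these shifts was not tested. E2F2, E2F5 and E2F8 rest on the fewest counts after treatment, down to 19 in a library.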
